A study of Homo sapiens with 8 samples.

Results

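Aminoacyl-tRNA synthetases were followed by ribosome profiling, in which the pieces of mRNA shielded by ribosomes (footprints) are sequenced, in BJ-HRAS cells, which derive from BJ, a cell line of human skin fibroblasts. A gene was taken as a member when its name had the form of a synthetase symbol (a one-letter amino acid code followed by ARS, with or without a final 1 or 2, or EPRS, FARSA or FARSB) in both deposited tables. This gave 31 members, 19 cytosolic and 12 mitochondrial (symbols ending in 2), of 10685 genes listed in both tables. MARS, CARS2, FARS2, VARS2 and YARS2 matched no row under these names and were not analysed here.

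The 4 groups were SNORA13 knockout clones 66 and 69 with 4-hydroxytamoxifen (4-OHT), WT clones 15 and 54 with 4-OHT, the same knockout clones without 4-OHT and the same WT clones without it. SNORA13 is a small nucleolar RNA, all groups carry the BJ-HRAS label, and 4-OHT was given at 100 nM for 7 days. HRAS is a signalling GTPase whose activated form drives fibroblasts into senescence, and 4-OHT binds estrogen receptor domains and is often used to activate fusion proteins that carry one. Each clone gave 1 library per condition, so the replicates are clones, 2 per group, and p-values measure the spread between clones. For 4-OHT changes this spread is pooled over all 4 groups, and for genotypes over the 2 groups compared. The standard error (SE) of a 4-OHT change is therefore the same in both genotypes and is not the spread of that genotype alone. Libraries with and without 4-OHT came in separate tables, so an effect of 4-OHT and one of the table cannot be told apart. The same holds for the knockout and the particular clones, 2 per genotype. SNORA13 matched no row, and the knockout was not checked on these values.

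Libraries held between 188408 and 1707064 recovered reads. The shallowest was that of knockout clone 66 with 4-OHT (3169 of 11079 genes at 0), and several knockout results that rest on it are given with and without it. It also enters the spread used to test the 4-OHT changes in WT clones. All 14 listed fibroblast markers, collagen chains among them, were above 0 in every library. They took 3.45% and 3.42% of footprints in knockout clones and 2.96% and 3.58% in WT clones with 4-OHT, and 8.19% and 7.10% in knockout clones and 8.84% and 8.79% in WT clones without it. Marker lists of keratinocytes, melanocytes, endothelial cells and leukocytes had at most 3 listed genes each and none took more than 0.0401% of a library. The fibroblast marker share moved with 4-OHT and, without 4-OHT, was lower in both knockout clones. Its part in the synthetase values was not tested. In such bulk libraries a lower value from fewer cells of a kind, from less mRNA per cell or from fewer ribosomes per mRNA cannot be told apart.

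Each synthetase attaches 1 kind of amino acid to its tRNAs, the step that ties an amino acid to the genetic code. The enzymes fall into 2 structural classes with unrelated catalytic folds. Several cytosolic ones sit with scaffold proteins in the multisynthetase complex, and mitochondria use a separate set that is made in the cytosol from nuclear genes and imported, except that GARS (glycine) and KARS (lysine) serve both compartments from a single gene. When amino acids run short, the transcription factor ATF4 raises many of the cytosolic synthetase genes together with genes of amino acid uptake and synthesis. Fibroblasts draw heavily on glycine and proline for collagen.

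Promoter sequences of the members were also read. RefSeq promoter windows (GRCh38.p14, 250 bases before to 50 after the annotated start) were matched for 26 of the 31 members, and none was matched for AARS2, DARS, LARS, VARS or YARS. They were searched on both strands for TGATGCAA, the form of the composite C/EBP-ATF element that ATF4 is known to bind. It was present in 5 of 9 matched cytosolic genes listed as known ATF4 targets, in 0 of 6 other cytosolic genes and in 0 of 11 mitochondrial genes, against 0.923% of all 27305 promoter windows. The looser form TGATGNAA, which contains every match of the first, was found in the same 5 members and in 3.67% of all windows. A match here is a description of the letters, and regulation by ATF4 was not tested. The 5 stretches are shown because only these genes among the 26 matched members held the motif. Each is read 5′ to 3′ on the strand of its gene, with the motif in capitals. They lie at chr16:70289675-70289704 on the minus strand for AARS (alanine), chr11:3057407-3057436 on the minus strand for CARS (cysteine), chr9:92293692-92293721 on the minus strand for IARS (isoleucine), chr18:57621804-57621833 on the minus strand for NARS (asparagine) and chr5:33440956-33440985 on the plus strand for TARS (threonine).
AARS: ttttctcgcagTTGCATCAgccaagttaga
CARS: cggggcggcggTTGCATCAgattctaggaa
IARS: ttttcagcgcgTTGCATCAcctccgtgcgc
NARS: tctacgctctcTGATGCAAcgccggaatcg
TARS: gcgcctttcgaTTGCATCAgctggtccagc
In 4 of them the motif reads on the strand opposite to the gene, and in NARS on the gene's own strand. It begins at position -187 from the annotated start of the promoter window in AARS, -13 in IARS, -2 in CARS, 2 in TARS and 14 in NARS. For TARS this start lies downstream of the start of the gene span used for its footprints, chr5:33440696. The TARS motif therefore lies inside that span, and its position holds only for the start of the window.

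HARS and HARS2, for cytosolic and mitochondrial histidine charging, are printed as a pair because they start head to head and their footprints differed. The 84 bases between their starts, chr5:140691371-140691454 on the plus strand, are 59.5% G or C, and HARS runs to the left and HARS2 to the right of them.
HARS-HARS2: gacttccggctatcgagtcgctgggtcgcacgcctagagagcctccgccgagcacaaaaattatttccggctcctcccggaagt

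The first question was how footprints on the synthetases changed with 4-OHT, in knockout and in WT clones. In knockout clones GARS, KARS, TARS and YARS rose and none fell, which is 4 of 31 members against 15.8% of 8773 tested genes called higher and 9.54% called lower. In WT clones HARS, WARS2 and YARS rose and none fell, which is 3 of 31 against 12.6% of genes called higher and 7.02% called lower. A call is an adjusted p under 0.05 in limma-trend on log2(RPKM + 0.1), with Benjamini-Hochberg adjustment over all tested genes. These shares of members are close to those of all genes. Limma-voom on recovered reads called 6 members higher and 1 lower in knockout clones (21.3% and 11.0% of genes), and 9 higher and 2 lower in WT clones (21.2% and 12.7%). The values are RPKM over the whole span of a gene, introns included, so they are compared between libraries for 1 gene and not between genes.

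YARS (tyrosine, ENSG00000134684.10, chr1:32775239-32817358) was called in both genotypes. It had 6.84 and 8.49 RPKM in knockout clones and 9.38 and 9.89 RPKM in WT clones with 4-OHT, against 3.59 and 3.77 RPKM in knockout clones and 5.83 and 4.63 RPKM in WT clones without it. Every library with 4-OHT was above every library without it. The log2 fold change was 1.03 ± 0.22 (SE, adjusted p = 0.0170) in knockout clones and 0.88 ± 0.22 (adjusted p = 0.0348) in WT clones, by limma.

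GARS (glycine, ENSG00000106105.14, chr7:30594735-30634033) had 12.6 and 17.2 RPKM in knockout clones and 17.7 and 14.8 RPKM in WT clones with 4-OHT, against 5.35 and 6.87 RPKM in knockout clones and 10.9 and 10.1 RPKM in WT clones without it. All 4 clones were higher with 4-OHT, and the knockout clones without it were the lowest of all 8 libraries. The log2 fold change was 1.26 ± 0.24 (adjusted p = 0.0106) in knockout clones and 0.62 ± 0.24 (adjusted p = 0.120) in WT clones. The difference of these changes, 0.64 with a 95% interval of -0.15 to 1.44, did not pass (adjusted p = 0.893).

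KARS (lysine, ENSG00000065427.14, chr16:75627724-75647665) had 18.4 and 16.2 RPKM in knockout clones and 13.7 and 15 RPKM in WT clones with 4-OHT, against 9.17 and 7.50 RPKM in knockout clones and 9.48 and 8.20 RPKM in WT clones without it. Libraries with and without 4-OHT did not overlap. The log2 fold change was 1.05 ± 0.20 (adjusted p = 0.0110) in knockout clones and 0.70 ± 0.20 (adjusted p = 0.0521) in WT clones, just above the threshold.

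TARS (threonine, ENSG00000113407.13, chr5:33440696-33468091) had 11.1 and 12.9 RPKM in knockout clones and 14.2 and 14.8 RPKM in WT clones with 4-OHT, against 7.52 and 7.44 RPKM in knockout clones and 9.47 and 9.41 RPKM in WT clones without it. The clones of each group lay close together and all 4 clones were higher with 4-OHT. On the log2 scale the change was 0.67 ± 0.18 (adjusted p = 0.0348) in knockout clones and 0.61 ± 0.18 (adjusted p = 0.0540) in WT clones.

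HARS (histidine, ENSG00000170445.14, chr5:140673905-140691370) had 5.94 and 6.24 RPKM in knockout clones and 7.70 and 11.5 RPKM in WT clones with 4-OHT, against 3.96 and 3.35 RPKM in knockout clones and 4.55 and 4.88 RPKM in WT clones without it. WT clone 54 with 4-OHT was the highest library. On the log2 scale the change was 0.73 ± 0.25 (adjusted p = 0.0758) in knockout clones and 0.98 ± 0.25 (adjusted p = 0.0364) in WT clones. Its head-to-head neighbour HARS2 had 5.34 and 3.76 RPKM in knockout clones and 2.79 and 2.81 RPKM in WT clones with 4-OHT, against 3.53 and 5.66 RPKM in knockout clones and 3.95 and 4.03 RPKM in WT clones without it. HARS2 was lower with 4-OHT in both WT clones and in knockout clone 69 and higher in knockout clone 66, and neither change passed (log2 0.00 in knockout and -0.49 in WT clones, adjusted p = 0.995 and 0.308).

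WARS2 (mitochondrial tryptophan, ENSG00000116874.11, chr1:119031216-119140672) was the 1 mitochondrial member called. It had 0.144 and 0.205 RPKM in knockout clones and 0.233 and 0.155 RPKM in WT clones with 4-OHT, against 0.132 and 0.0961 RPKM in knockout clones and 0.0553 and 0.0231 RPKM in WT clones without it. The WT clones without 4-OHT stood below all other libraries. These values rest on few reads, 53 in the WT clones with 4-OHT and 10 in the WT clones without it, of which 2 came from clone 54. The ratio of the 2 sums, each divided by the depth of its libraries, was 4.92 (95% exact interval of 2.48 to 10.9, counting error only). The log2 fold change was 0.35 ± 0.27 (adjusted p = 0.359) in knockout clones and 1.08 ± 0.27 (adjusted p = 0.0334) in WT clones.

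These calls depended on single libraries and on the test. The 4-OHT tests share 1 estimate of the spread over all 4 groups, so the WT calls also changed when a knockout library was left out. With the clone as a block, which pairs the libraries of each clone, the knockout calls of GARS, KARS and YARS passed and that of TARS did not (adjusted p = 0.0772), and none of the WT calls passed (adjusted p = 0.0635 for HARS, 0.0616 for WARS2 and 0.0740 for YARS). All 3 WT calls were lost without any 1 of the 4 libraries without 4-OHT or without WT clone 54 with 4-OHT, and 1, HARS, remained without WT clone 15 with 4-OHT. In knockout clones the 4 calls were kept without the shallow library of clone 66, KARS alone remained without clone 66 without 4-OHT, and GARS alone without clone 69 without 4-OHT.

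**Figure D1:**
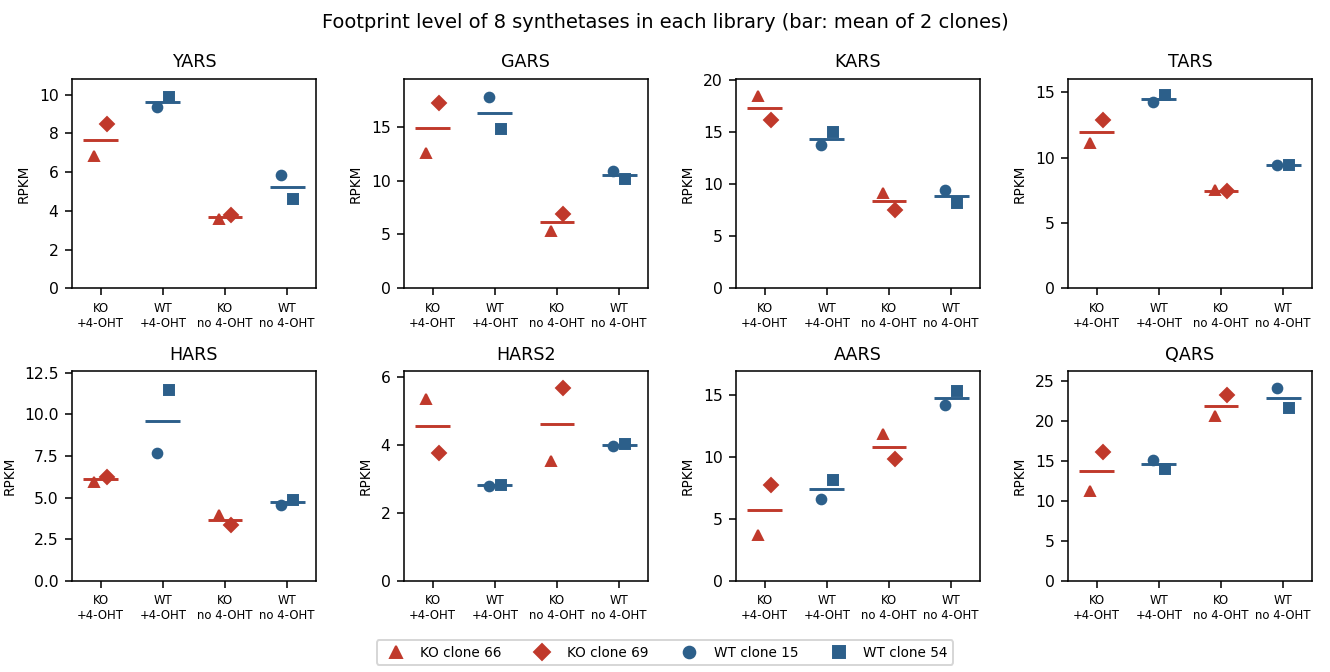
Footprint level (RPKM over the gene span, axis from 0) of 8 synthetases in each of the 8 libraries, with knockout clones in red, WT clones in blue and a bar for the mean of 2 clones. YARS, GARS, KARS and TARS are higher in every clone with 4-OHT than in the same clone without it, AARS and QARS are lower, and HARS2 does not follow HARS.

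FARSB, the beta subunit of the phenylalanine enzyme, had changes as large as the called genes without passing. It had 2.11 and 2.79 RPKM in knockout clones and 2.87 and 1.40 RPKM in WT clones with 4-OHT, against 1.13 and 0.941 RPKM in knockout clones and 1.06 and 0.820 RPKM in WT clones without it. All 4 clones were higher with 4-OHT, WT clone 54 least so. The log2 fold change was 1.16 ± 0.40 (adjusted p = 0.0746) in knockout clones and 1.03 ± 0.40 (adjusted p = 0.123) in WT clones. FARSA, the alpha subunit, differed less, with log2 values of 0.14 in knockout and 0.48 in WT clones.

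SARS (serine) had 8.20 and 12.6 RPKM in knockout clones and 17.4 and 16.8 RPKM in WT clones with 4-OHT, against 6.31 and 8.29 RPKM in knockout clones and 11.6 and 10.4 RPKM in WT clones without it. It was higher in all 4 clones with 4-OHT, and both knockout clones were below both WT clones under either condition. The 4-OHT changes of 0.49 in knockout and 0.64 in WT clones did not pass (adjusted p = 0.207 and 0.139).

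AARS and QARS went the other way. AARS (alanine, ENSG00000090861.15, chr16:70252298-70289506) had 3.66 and 7.71 RPKM in knockout clones and 6.64 and 8.16 RPKM in WT clones with 4-OHT, against 11.8 and 9.79 RPKM in knockout clones and 14.2 and 15.3 RPKM in WT clones without it. QARS (glutamine, ENSG00000172053.18, chr3:49095932-49104757) had 11.3 and 16.2 RPKM in knockout clones and 15.1 and 14 RPKM in WT clones with 4-OHT, against 20.6 and 23.3 RPKM in knockout clones and 24.1 and 21.6 RPKM in WT clones without it. For both genes every library with 4-OHT was below every library without it. Neither passed by limma-trend on all 8 libraries. The log2 fold changes of AARS were -1.0 ± 0.35 in knockout clones and -0.99 ± 0.35 in WT clones (adjusted p = 0.0761 and 0.0946). Those of QARS were -0.69 ± 0.22 and -0.64 ± 0.22 (adjusted p = 0.0584 and 0.0875). In WT clones both were called lower by limma-voom on recovered reads and in a fit of the 4 WT libraries alone.

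Counted by direction alone, 13 of 31 members were higher with 4-OHT in all 4 clones, against 33.1% of all tested genes, and 3 were lower in all 4, against 22.6%. Of the 13, 11 were cytosolic (DARS, FARSB, GARS, HARS, IARS, KARS, NARS, RARS, SARS, TARS and YARS) and 2 mitochondrial (EARS2 and WARS2). AARS, QARS and the mitochondrial arginine enzyme RARS2 were the 3 that were lower. Groups did not overlap and were higher with 4-OHT for 13 of 19 cytosolic and 3 of 12 mitochondrial members in knockout clones, against 36.7% of genes. In WT clones this held for 11 of 19 cytosolic and 5 of 12 mitochondrial members, against 41.5% of genes.

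**Figure D2:**
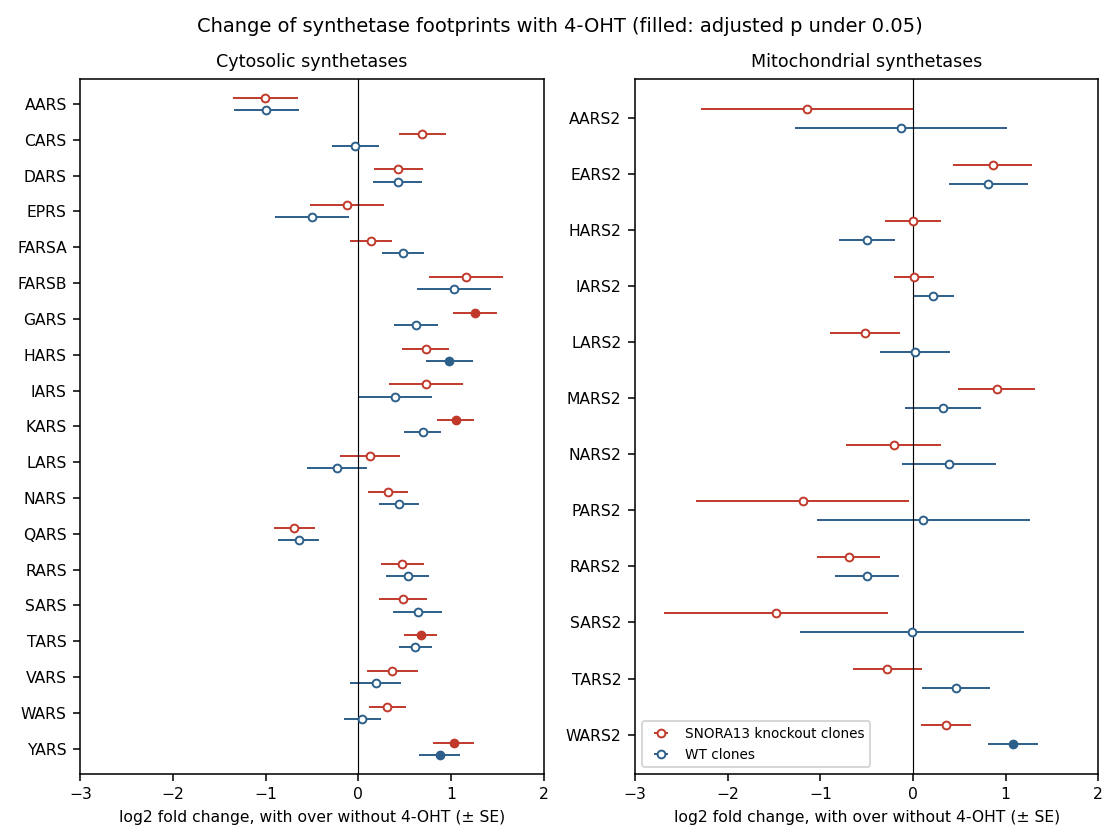
Log2 fold change of each synthetase with over without 4-OHT, in knockout (red) and WT (blue) clones, with bars of 1 SE from the fit of all 8 libraries and filled points for an adjusted p under 0.05. Most cytosolic points lie right of 0, AARS and QARS lie left of it in both genotypes, and the mitochondrial points scatter on both sides with wide bars for AARS2, PARS2 and SARS2.

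By list, the median log2 change of the cytosolic enzymes was 0.47 in knockout clones (16 of 19 above 0) and 0.44 in WT clones (14 of 19), against 0.11 and 0.16 for all tested genes, of which 54.4% and 57.6% were above 0. That of the mitochondrial enzymes was -0.24 in knockout clones (5 of 12 above 0) and 0.17 in WT clones (8 of 12). Rescaling each library to the median ratio of its genes moved the median of all genes to -0.15 in knockout and -0.06 in WT clones. The cytosolic medians then were 0.13 and 0.17 and the mitochondrial ones -0.48 and -0.10, so the cytosolic medians stayed above that of all genes under both scalings. After this rescaling 1 member was called higher and 2 lower in knockout clones (10.5% and 13.7% of genes) and 0 higher and 1 lower in WT clones (8.39% and 9.32% of genes). The negative mitochondrial median in knockout clones rested on the shallow library: without clone 66 with 4-OHT it was 0.40, beside 0.64 for the cytosolic list and 0.22 for all genes.

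The 2 structural classes of cytosolic enzymes overlapped in their changes. The 10 class II enzymes had a median of 0.58 in knockout and 0.62 in WT clones, with 9 of 10 above 0 in each, AARS being the exception. The 8 class I enzymes had medians of 0.42 and 0.12, with 7 and 5 of 8 above 0. Enzymes of the multisynthetase complex (7 listed) had medians of 0.43 in knockout and 0.40 in WT clones, and free cytosolic enzymes (12) 0.58 and 0.55.

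Within the complex, EPRS, which charges both glutamate and proline, had 2.02 and 3.61 RPKM in knockout clones and 4.06 and 2.33 RPKM in WT clones with 4-OHT, against 2.59 and 3.36 RPKM in knockout clones and 5.12 and 3.78 RPKM in WT clones without it. LARS (leucine) had 2.26 and 2.37 RPKM in knockout clones and 2.59 and 2.05 RPKM in WT clones with 4-OHT, against 2.60 and 1.72 RPKM in knockout clones and 3.31 and 2.23 RPKM in WT clones without it. Both were lower with 4-OHT in 3 of 4 clones, with knockout clone 69 the exception, and neither change passed in either genotype. IARS (isoleucine) had 0.815 and 0.756 RPKM in knockout clones and 0.837 and 0.467 RPKM in WT clones with 4-OHT, against 0.372 and 0.504 RPKM in knockout clones and 0.561 and 0.363 RPKM in WT clones without it. It was higher in all 4 clones and did not pass (log2 0.73 and 0.40, adjusted p = 0.213 and 0.544). The spans of EPRS and IARS each hold an annotated snoRNA.

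The scaffold proteins of the complex were listed as well. EEF1E1 had 2.87 and 1.95 RPKM in knockout clones and 1.63 and 1.22 RPKM in WT clones with 4-OHT, against 0.494 and 0.601 RPKM in knockout clones and 0.492 and 0.477 RPKM in WT clones without it. AIMP1 had 4.68 and 4.94 RPKM in knockout clones and 4.25 and 3.38 RPKM in WT clones with 4-OHT, against 1.91 and 2.64 RPKM in knockout clones and 2.07 and 1.39 RPKM in WT clones without it. Both rose in both genotypes: EEF1E1 by 1.94 and 1.37 on the log2 scale in knockout and WT clones (adjusted p = 0.00838 and 0.0338), and AIMP1 by 1.06 and 1.11 (adjusted p = 0.0422 and 0.0427). Without the shallow library AIMP1 did not pass in knockout clones (log2 1.10, adjusted p = 0.0835). AIMP2, the remaining scaffold, had 1.80 and 5.17 RPKM in knockout clones and 4.36 and 5.36 RPKM in WT clones with 4-OHT, against 3.73 and 4.50 RPKM in knockout clones and 3.17 and 3.30 RPKM in WT clones without it. It was lower with 4-OHT in knockout clone 66, the shallow library, and higher in the other 3 clones. The log2 change was -0.41 in knockout clones, or 0.33 without that library, and 0.57 in WT clones, and none of these passed.

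WARS, the cytosolic tryptophan enzyme and a known target of interferon, had 7.68 and 6.85 RPKM in knockout clones and 10.3 and 8.57 RPKM in WT clones with 4-OHT, against 5.49 and 6.16 RPKM in knockout clones and 9.15 and 9.09 RPKM in WT clones without it. Both knockout clones were below both WT clones under either condition. The 4-OHT changes of 0.31 in knockout and 0.04 in WT clones did not pass (adjusted p = 0.283 and 0.908). Over the same libraries 13 of 16 tested interferon response genes fell in knockout and 10 of 16 in WT clones, none rose, and the list median was -3.46 and -2.70. Of all tested genes 9.54% fell in knockout and 7.02% in WT clones, and 15.8% and 12.6% rose.

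Among the mitochondrial enzymes, EARS2 (glutamate) had 2.52 and 1.15 RPKM in knockout clones and 1.29 and 1.39 RPKM in WT clones with 4-OHT, against 1.10 and 0.727 RPKM in knockout clones and 0.727 and 0.715 RPKM in WT clones without it. It was higher in every clone with 4-OHT and did not pass (log2 0.86 and 0.81 in knockout and WT clones, adjusted p = 0.176 and 0.237). RARS2 (arginine) had 0.413 and 0.629 RPKM in knockout clones and 0.530 and 0.491 RPKM in WT clones with 4-OHT, against 0.860 and 0.922 RPKM in knockout clones and 0.666 and 0.865 RPKM in WT clones without it. It was lower in every clone and did not pass (log2 -0.70 and -0.49, adjusted p = 0.177 and 0.372).

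IARS2 (isoleucine) had 3.69 and 4.31 RPKM in knockout clones and 4.19 and 3.87 RPKM in WT clones with 4-OHT, against 4.26 and 3.68 RPKM in knockout clones and 3.42 and 3.47 RPKM in WT clones without it. LARS2 (leucine) had 0.0946 and 0.257 RPKM in knockout clones and 0.30 and 0.235 RPKM in WT clones with 4-OHT, against 0.347 and 0.218 RPKM in knockout clones and 0.241 and 0.281 RPKM in WT clones without it. Its lowest value came from the shallow library, on 2.9 recovered reads. TARS2 (threonine) had 0.518 and 0.956 RPKM in knockout clones and 1.41 and 1.59 RPKM in WT clones with 4-OHT, against 0.986 and 0.780 RPKM in knockout clones and 1.12 and 0.999 RPKM in WT clones without it. Both knockout clones were below both WT clones under either condition for TARS2, but its value in knockout clone 66 with 4-OHT rests on 2.0 recovered reads. MARS2 (methionine) had 3.47 and 4.72 RPKM in knockout clones and 4.91 and 3.37 RPKM in WT clones with 4-OHT, against 2.57 and 1.74 RPKM in knockout clones and 2.26 and 4.61 RPKM in WT clones without it, and WT clone 54 was the 1 clone in which it was lower with 4-OHT. The MARS2 value of knockout clone 66 with 4-OHT rests on 2.0 recovered reads, and those without 4-OHT on 7.0 to 11.0 reads per library.

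AARS2 (alanine), PARS2 (proline) and SARS2 (serine) were listed at 0 in knockout clone 66 with 4-OHT, where 3 reads would give 1.09, 2.09 and 1.03 RPKM, so a level below those values was not detectable there. AARS2 had 0 and 1.60 RPKM in knockout clones and 1.34 and 1.39 RPKM in WT clones with 4-OHT, against 0.683 and 0.960 RPKM in knockout clones and 1.24 and 1.82 RPKM in WT clones without it. PARS2 had 0 and 1.07 RPKM in knockout clones and 1.71 and 1.78 RPKM in WT clones with 4-OHT, against 0.291 and 1.46 RPKM in knockout clones and 1.19 and 2.16 RPKM in WT clones without it. SARS2 had 0 and 1.76 RPKM in knockout clones and 1.02 and 0.869 RPKM in WT clones with 4-OHT, against 0.709 and 1.68 RPKM in knockout clones and 1.02 and 0.890 RPKM in WT clones without it. Apart from the zeros, each gene's remaining libraries spanned overlapping ranges with and without 4-OHT, and no comparison of these genes passed over all libraries.

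The second question was whether footprints differed between knockout and WT clones without 4-OHT. None of 30 tested members passed, and none of 8158 genes did (0.0% called), by limma-trend. At an unadjusted p under 0.05 there were 5 members and 646 genes, which is 7.92% of genes, and limma-voom on recovered reads called 62 genes (0.76%) and 0 members. By direction, 15 of 19 cytosolic members were below 0 (47.3% of all genes were above it), that is, lower in knockout clones, and for 9 of them both knockout clones were below both WT clones, against 20.6% of all tested genes.

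The 11 listed genes known as ATF4 targets made up most of this. All 11 had a log2 fold change below 0, with a median of -0.46 against -0.02 for all genes. For 8 of 11 both knockout clones were below both WT clones, against 20.6% of all tested genes. Among the 8 other cytosolic members the median was -0.01, 4 were below 0 and for 1 of 8 the clones did not overlap. The list median stayed between -0.62 and -0.33 over 11 alternatives, with 9 to 11 of its genes below 0.

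The largest differences among these were those of GARS, WARS and SARS, whose library values are given above. In GARS the knockout clones without 4-OHT averaged 6.11 ± 1.07 RPKM and the WT clones 10.5 ± 0.543 RPKM (SD, n = 2 clones), a log2 difference of -0.78 ± 0.21 (adjusted p = 0.545 by limma). WARS differed by -0.64 ± 0.19 (adjusted p = 0.600) and SARS by -0.59 ± 0.22 (adjusted p = 0.618). EPRS, YARS, CARS and AARS followed with -0.56, -0.49, -0.46 and -0.45, and in each of them both knockout clones were below both WT clones. Of the genes with the promoter motif, CARS, AARS and TARS (-0.33) had both knockout clones below both WT clones. The others, IARS with -0.05 and NARS with -0.12, had overlapping clones.

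Genes of the amino acid response outside the family gave a similar count. Of 27 tested genes, 21 were below 0, the median was -0.45, both knockout clones were below both WT clones for 14 and above for 1, and none passed. Of all tested genes 47.3% were above 0, and both knockout clones were below both WT clones for 20.6% and above for 18.9%. The smallest p-values belonged to DDIT4, an inhibitor of mTORC1 signalling, and PSAT1, an enzyme of serine synthesis. DDIT4 had 8.40 and 14.1 RPKM in knockout clones and 26.1 and 31.1 RPKM in WT clones without 4-OHT (log2 -1.38 ± 0.29, adjusted p = 0.466). PSAT1 had 1.18 and 1.76 RPKM in knockout clones and 3.92 and 3.61 RPKM in WT clones (log2 -1.33 ± 0.28, adjusted p = 0.474). Among genes of tRNA delivery, EEF1A2, a form of the cytosolic elongation factor that is usually restricted to a few tissues, had 9.01 and 7.18 RPKM in knockout clones and 0.683 and 0.343 RPKM in WT clones without 4-OHT (log2 3.79 ± 0.35, adjusted p = 0.277). ATF4 itself had 4.08 and 5.87 RPKM in knockout clones and 6.58 and 4.23 RPKM in WT clones, with overlapping clones.

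**Figure D3:**
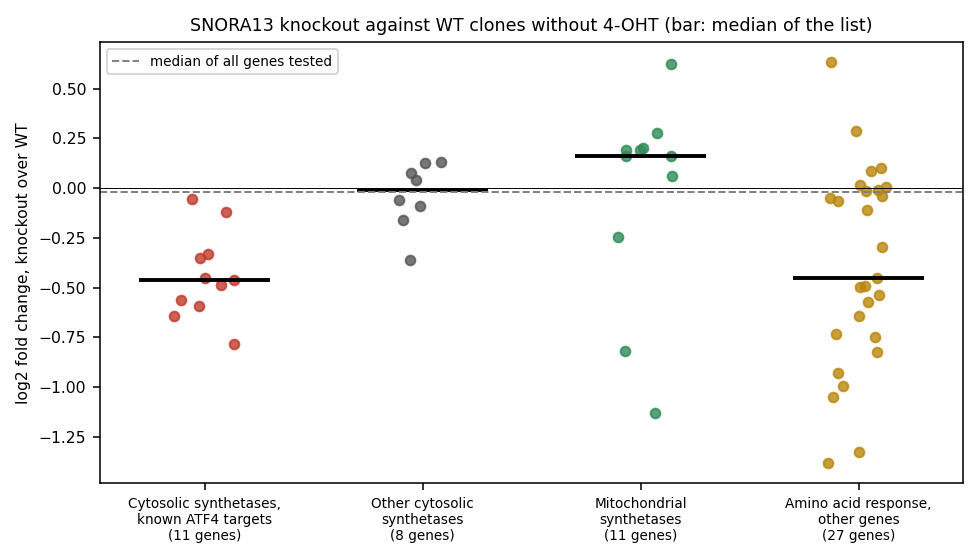
Log2 fold change of knockout over WT clones without 4-OHT, 1 point per gene, for cytosolic synthetases known as ATF4 targets, other cytosolic synthetases, mitochondrial synthetases and other genes of the amino acid response, with a bar for each median and a dashed line for the median of all tested genes (-0.02). All 11 points of the first list lie below 0, with a median of -0.46.

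The mitochondrial enzymes did not share this direction. Their median was 0.16, 8 of 11 tested members were above 0, and for 3 the knockout clones were above and for 2 below the WT clones without overlap, against 18.9% and 20.6% of genes. Without knockout clone 69 the median was -0.13 over 10 members. WARS2 (0.62 ± 0.22, adjusted p = 0.618) and AARS2 (-0.82 ± 0.33, adjusted p = 0.629) had the smallest p-values, in opposite directions. In 9 of 11 pairs of a mitochondrial enzyme and its cytosolic counterpart, the cytosolic difference was the lower. EPRS was the counterpart of both EARS2 and PARS2, so the pairs are not independent of each other.

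Summed over the list, the known ATF4 targets took 0.215% and 0.218% of footprints in knockout clones and 0.320% and 0.289% in WT clones without 4-OHT, while the other cytosolic members took 0.102% and 0.109% in knockout clones and 0.111% and 0.103% in WT clones. The mitochondrial members took 0.0487% and 0.0485% in knockout clones and 0.0420% and 0.0459% in WT clones. Knockout and WT clones were thus apart for the first list, overlapping for the second and apart in the other direction for the third.

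The mitochondrial share of all synthetase footprints was 13.3% and 12.9% in knockout clones and 8.89% and 10.5% in WT clones without 4-OHT, and 9.48% and 9.95% in knockout clones and 9.25% and 9.23% in WT clones with 4-OHT. Without 4-OHT the mean was 13.1% ± 0.311 in knockout clones and 9.68% ± 1.12 in WT clones, and with 4-OHT it was 9.71% ± 0.333 in knockout clones and 9.24% ± 0.00725 in WT clones (SD, n = 2 clones). The knockout clones without 4-OHT were above all other libraries. No test was made on this sum over members. When RPKM values were summed instead of footprints, the shares without 4-OHT were 12% and 13% in knockout clones and 9.78% and 12.6% in WT clones, and the genotypes overlapped.

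**Figure D4:**
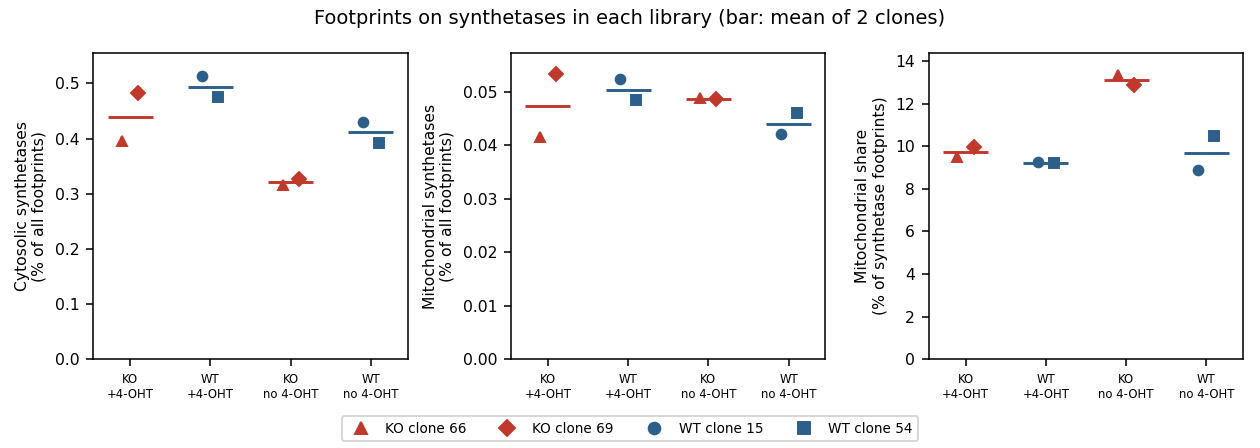
Share of all footprints on cytosolic synthetases, on mitochondrial synthetases, and mitochondrial share of all synthetase footprints, in percent per library with a bar for the mean of 2 clones (axes from 0). Knockout clones without 4-OHT have the lowest cytosolic shares (0.317% and 0.328%) and the highest mitochondrial shares of the family (13.3% and 12.9%).

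With 4-OHT, none of 30 tested members and none of 7757 genes (0.0%) were called different between knockout and WT clones by limma-trend. At an unadjusted p under 0.05 there was 1 member, SARS (log2 -0.75 ± 0.29, adjusted p = 0.815), and 309 genes (3.98%), and limma-voom called 56 genes (0.722%) and 0 members. The known ATF4 targets had a median of -0.24, with 8 of 11 below 0 (47.9% of genes were above it), and for 4 of 11 both knockout clones were below both WT clones, against 18.5% of genes. Without the shallow library their median was 0.04. Other cytosolic members had a median of 0.00, the mitochondrial ones -0.10 and all genes -0.03. Without knockout clone 69, AARS2, NARS2, SARS and TARS2 were called lower, and the knockout group was then the shallow library alone.

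No member's 4-OHT change differed between genotypes: none of 31 passed the interaction test, nor did any of 8773 genes (0.0%), and none of 31 had an unadjusted p under 0.05, against 4.16% of genes. Limma-voom called 4 genes (0.0456%) and 0 members. Only without knockout clone 69 with 4-OHT did any member pass, AARS2 and SARS2, both at 0 in the shallow library that then stood for its group. GARS, CARS and MARS2 had the largest positive differences of the change in knockout over that in WT clones, 0.64, 0.73 and 0.58, that of MARS2 on few reads. Since the knockout libraries without 4-OHT enter both the 4-OHT change and the comparison of genotypes, these values are no independent second view of GARS.

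Other genes of tRNA supply were followed in the 4-OHT comparisons. TUFM, the mitochondrial elongation factor that carries charged tRNAs to the ribosome, had 69.2 and 56.9 RPKM in knockout clones and 61.1 and 66.4 RPKM in WT clones with 4-OHT, against 32.4 and 41.0 RPKM in knockout clones and 34.4 and 39.5 RPKM in WT clones without it. It rose by 0.78 and 0.79 on the log2 scale in knockout and WT clones (adjusted p = 0.0294 and 0.0337), and in knockout clones it did not pass without the shallow library (log2 0.64, adjusted p = 0.110). Of the 4 listed genes of tRNA delivery, EEF1A2 fell in knockout clones (log2 -1.62, adjusted p = 0.0491, or -1.51 and 0.121 without the shallow library), and EEF1A1 and the tRNA exporter XPOT did not pass in either genotype.

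The amino acid response list moved in both directions with 4-OHT. Of 28 tested genes, 6 rose and 3 fell in knockout clones, and 2 rose and 4 fell in WT clones, with medians of -0.11 and -0.20. Of all genes 15.8% rose and 9.54% fell in knockout clones, and 12.6% rose and 7.02% fell in WT clones. Without the shallow library 5 of the 28 rose and 2 fell in knockout clones and their median was 0.50. CHAC1, a glutathione-degrading enzyme, had 198 and 123 RPKM in knockout clones and 123 and 162 RPKM in WT clones with 4-OHT, against 6.20 and 13.5 RPKM in knockout clones and 11.7 and 7.07 RPKM in WT clones without it, and rose by 4.08 and 3.94 on the log2 scale. EIF4EBP1, an inhibitor of cap-dependent initiation, rose by 3.08 and 2.48. The amino acid transporter SLC38A2 had 36.3 and 28.5 RPKM in knockout clones and 27.4 and 27.6 RPKM in WT clones with 4-OHT, against 110 and 118 RPKM in knockout clones and 106 and 109 RPKM in WT clones without it, and fell by 1.83 and 1.96 on the log2 scale. ASNS, which makes asparagine, and PHGDH, which starts serine synthesis, rose in knockout clones (log2 1.18 and 1.17, adjusted p = 0.0471 and 0.0302). In WT clones neither passed, and the difference of the changes passed for no gene.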

How the data were processed

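The deposited tables hold 1 value per gene and library and name no unit. The authors' values were read as RPKM, since values multiplied by gene spans, introns included, summed to between 1012127 and 1019240 in every library. STAR and GRCh38 are named in the submitters' processing notes; the sources used here give no versions, counter, annotation or use of strand, so reads of overlapping genes (18 members overlap another annotated gene, 2 of them a protein-coding one, EARS2 and YARS) cannot be told apart.

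Reads were recovered from the size of the smallest step per library; between 78.3% and 83.8% of low values came out within 0.1 of a whole number, so read numbers are approximate. Their totals are the depth of each library, and 3 reads are the limit given for a 0. Intervals and limits cover counting error only. No per-sample column was unused (0). Genes reaching 10 recovered reads in 2 or more libraries were tested with limma 3.58.1 (R 4.3.3), limma-trend on log2(RPKM + 0.1); this scale understates changes of low genes. 4-OHT changes and their difference were fitted on all 8 libraries (4 residual degrees of freedom), genotypes within each table (2), with Benjamini-Hochberg adjustment over all tested genes. The fit recovered changes set into simulated data, where only genes with many reads were changed and the spread was fixed in advance. The simulation does not measure how often real changes between these clones would be found. An exact permutation test of 2 against 2 libraries has 3 splits and was not used.

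The numbers of clones pair libraries with and without 4-OHT, since the labels give the same clone number to both. Deviations from the group means correlated by 0.0990 within WT and 0.0496 within knockout clones over 8773 genes.

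Members, gene lists and tests were chosen with earlier results of these data known. Values are given for called members, for the 3 largest rises and falls per comparison and for a panel (WARS, EPRS, IARS, LARS, MARS, GARS, KARS, AARS, SARS, WARS2, LARS2, IARS2, PARS2, FARS2, and 1 more that is not reported here). From other lists up to 4 called genes, or the 2 with the smallest p, were eligible. Alternatives were a pseudocount of 1, no read filter, median-ratio scaling, limma-voom on recovered reads, removal of ribosomal protein and mitochondrially encoded genes, each library left out, other sets of libraries in the fit, and the clone as a replicate block. Sequences are from RefSeq (GRCh38.p14).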

Additional observations from a re-analysis of the deposited data

Results flagged for a closer look

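In 2 members the sign of the 4-OHT change in both knockout clones was opposite to that in both WT clones, and the interaction test passed for neither. Some of these changes were very small. On the log2 scale they were -0.059 and -0.0097 for CARS in WT clones 15 and 54, and -0.034 for NARS2 in knockout clone 69. CARS (cysteine) had 3.33 and 4.56 RPKM in knockout clones and 3.21 and 3.23 RPKM in WT clones with 4-OHT, against 2.60 and 2.17 RPKM in knockout clones and 3.35 and 3.26 RPKM in WT clones without it, and the change in knockout clones minus that in WT clones was 0.727 on the log2 scale (limma adjusted p = 0.893). NARS2 (mitochondrial asparagine) had 0.0377 and 0.257 RPKM in knockout clones and 0.218 and 0.183 RPKM in WT clones with 4-OHT, against 0.0798 and 0.265 RPKM in knockout clones and 0.131 and 0.127 RPKM in WT clones without it, a difference of -0.599 (limma adjusted p = 0.904). In knockout clone 66 with 4-OHT the NARS2 value rests on 1 recovered read.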

How the results depend on the processing

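Of the per-gene values of the members under the alternatives, none that passed a threshold changed sign, and the alternatives left the direction of the cytosolic medians with 4-OHT above 0 in both genotypes. The limits are those of 2 clones per group: single libraries decided most calls, and the cause of each shift was not tested. Limma-voom on recovered reads called 2980 genes for 4-OHT in WT clones, with 9 members higher and 2 lower, and 1 member lower in knockout clones. It called 4 genes for the difference of the changes, 62 for knockout against WT without 4-OHT and 56 with it. After median-ratio scaling 0 members were higher and 1 lower in WT clones, and 1 higher and 2 lower in knockout clones; this scaling turned the split of called genes to 736 higher and 818 lower in WT clones and 924 and 1204 in knockout clones, against 1108 and 616, and 1386 and 837. Using only the 4 libraries of a genotype gave 2 members lower in WT clones, and 999 genes and 0 members higher in knockout clones. With the replicate block, which pairs libraries by clone, 0 members were higher in WT clones, 1295 genes were called in WT and 1718 in knockout clones, and it changed no other call apart from TARS. Leaving out 1 library at a time gave 663 to 2394 genes in WT clones (753 and 921 without clone 15 without and with 4-OHT, 663 and 672 without clone 54) with 0 to 5 members higher and 0 to 2 lower, 922 to 3645 genes in knockout clones (1420 without clone 69 without 4-OHT) with 1 to 4 higher and 0 to 5 lower, 0 to 412 genes for the difference with 0 to 2 members lower, 0 to 67 genes between genotypes without 4-OHT, and 0 to 1151 genes with 0 to 4 members lower with 4-OHT. The highest counts for the last 2 comparisons with called members came without knockout clone 69 with 4-OHT. The mitochondrial share by summed RPKM averaged 10.96% in knockout clones and 10.04% in WT clones with 4-OHT, and 12.5% and 11.2% without it; without GARS and KARS it averaged 11.96% and 11.1%, and 14.7% and 11.1%.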

Other observations

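Genes that make and mature tRNAs were also read. Of 15 tested genes of tRNA maturation, 4 rose in knockout clones (POP7 and RPP30, subunits of RNase P, the ligase RTCB and the splicing endonuclease subunit TSEN34) and 2 in WT clones (POP7 and TSEN34), and none fell, with list medians of 0.62 and 0.52. Of all tested genes 15.8% rose in knockout and 12.6% in WT clones, beside which these counts and those of RNA polymerase III are to be read. Without the shallow library of knockout clone 66 none of the 4 passed in knockout clones (adjusted p of 0.0574 to 0.0699). In that fit 1 other gene of the tRNA maturation list was called higher in knockout clones. POP7 had 34.5 and 24.6 RPKM in knockout clones and 28.2 and 34.8 RPKM in WT clones with 4-OHT, against 5.68 and 12.4 RPKM in knockout clones and 5.54 and 8.33 RPKM in WT clones without it. Of 21 tested genes of RNA polymerase III and its factors, 2 rose in knockout clones (GTF3C6 and POLR3G) and 3 in WT clones (these and POLR3K), and none fell. Without the shallow library POLR3K passed in knockout clones too (log2 1.53, adjusted p = 0.0134). POLR3G, the polymerase subunit of growing and undifferentiated cells, had 1.58 and 0.590 RPKM in knockout clones and 0.478 and 0.342 RPKM in WT clones with 4-OHT, against 0 and 0.0442 RPKM in knockout clones and 0.0572 and 0 RPKM in WT clones without it. Of 8 tested relatives and editing enzymes of the synthetases none passed in either genotype.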
